A study of Mus musculus with 4 samples.

Results

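The mouse gene symbols made of Zfp and exactly 3 digits name a large set of zinc finger protein genes, and the analysis here followed those with measurable RNA in sorted liver cells. Of 21878 rows in the deposited tables, 293 carried such a symbol and 263 of these had at least 10 raw counts in at least 2 of the 4 libraries, which made them members. The members were thus chosen by their raw counts, and the counts at the edge of the rule are given once, as a description. Just inside were Zfp879, with 4 and 4 counts in HACY and 15 and 10 in CCL4, Zfp811, with 13 and 18 in HACY and 7 and 3 in CCL4, and Zfp831, with 8 and 11 in HACY and 11 and 11 in CCL4. Just outside were Zfp300, with 8 and 9 counts in HACY and 9 and 6 in CCL4, and Zfp819, with 0 and 5 in HACY and 10 and 3 in CCL4. Zfp811 passed through the HACY libraries alone and Zfp879 through the CCL4 libraries alone, while 261 members did not rest on 1 group. The test's own filter on low counts kept 262 members and left out Zfp879.

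The libraries hold total RNA of C57BL/6 mouse liver cells that were collected on magnetic columns (MACS) by the surface protein CD24, which is used to enrich liver progenitor cells. The labels call the cells hepatocytes. The HACY group (2 libraries) came from mice given a cocktail of Y-27632, a protein kinase inhibitor, A-83-01, a blocker of TGF-beta type I receptors, and CHIR99021, a blocker of glycogen synthase kinase 3, by intraperitoneal injection on 3 occasions in each of 6 weeks. The CCL4 group (2 libraries) came from mice injected with the liver toxin carbon tetrachloride, dissolved in olive oil and dosed at 2 ml/kg, on 2 occasions in each of 6 weeks. Mice of both groups were 8 weeks old at the injections by the protocol and 6 to 8 weeks old by the age label. Whether HACY mice also received the toxin is not clear from the labels, and with no untreated or vehicle group the effect of either treatment alone cannot be told apart from that of the other. The labels do not say that replicates are separate animals, so each p-value reflects no more than the spread of the libraries at hand, some of which may be technical.

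Total counts were 19151738 and 18985478 in HACY replicates 1 and 2, and 18467299 and 19314219 in CCL4 replicates 1 and 2. All 12 hepatocyte markers were detected, and their summed level was 30433 to 37477 CPM, read counts relative to the library total, in HACY and 9852 to 11483 in CCL4, with 9 of 12 called higher. Of all genes tested, 8.19% were called higher in HACY and 3.54% lower. The sums were 2736 to 3958 CPM in HACY and 1250 to 1663 in CCL4 for 12 macrophage genes (11 called higher), 2840 to 4026 and 1303 to 2372 for 8 bile duct cell genes (0 of 7 tested called by edgeR or limma-voom, 1 called higher by DESeq2, and 2 higher at an unadjusted edgeR p below 0.05) and 1124 to 1519.5 and 559 to 963 for 8 endothelial genes (3 called higher and 1 lower). Stellate cell genes summed to 314 to 391 CPM in HACY and 182 to 538 in CCL4 (0 of 6 tested called by edgeR, and 0 at an unadjusted edgeR p below 0.05). B cell genes summed to 39.7 to 54.4 in HACY and 36.8 to 38.2 in CCL4 (1 of 8 called higher). Neutrophil genes summed to 21.8 to 25.5 CPM in HACY and 23.0 to 216 in CCL4, where replicate 2 was the high library (1 of 8 tested called lower). Genes of T and NK cells summed to at most 2.84 CPM and erythroid genes to at most 9.27 CPM, both in HACY. Every marker with a row had counts in at least 1 library. The HACY replicates differed with a chi-square of 19.8 for each degree of freedom and the CCL4 replicates with 35.6, and results below are also given without single libraries. Marker sums did not overlap between the groups for hepatocyte, macrophage, bile duct, endothelial and B cell genes, and overlapped for stellate cell and neutrophil genes. The part of marker levels in the results on zinc finger genes was not tested.

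Zinc finger proteins of the C2H2 kind fold short repeats around a zinc ion held by a pair of cysteines and a pair of histidines, and arrays of such fingers can bind DNA by its sequence. Many of them carry a KRAB box, a domain that binds the co-repressor TRIM28 (KAP1), which in turn brings the histone methyltransferase SETDB1 and heterochromatin protein to the bound site. These KRAB proteins silence retroelements and hold imprinting marks, and in mouse liver the KRAB gene Rsl1 restrains genes that are expressed mainly in males. Others without the box act as activators, scaffolds or RNA-binding proteins.

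The repeated unit is shown by 6 members called lower in HACY. They are, in each of 3 classes given below, the first 2 by their order of p among those whose coding sequence holds the unit, which passed over Zfp346, Zfp622, Zfp462, Zfp444, Zfp296 and Zfp688. Each line is the first finger in the coding sequence that runs straight into the conserved linker to the next finger, 84 bases from the GENCODE vM21 transcript (GRCm38), read 5′ to 3′ on the coding strand, with the codons of the zinc-binding cysteines and histidines in capitals.
Zfp111: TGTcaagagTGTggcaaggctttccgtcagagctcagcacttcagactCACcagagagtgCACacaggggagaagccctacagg
Zfp456: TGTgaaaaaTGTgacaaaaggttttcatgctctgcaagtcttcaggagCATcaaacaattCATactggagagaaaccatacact
Zfp334: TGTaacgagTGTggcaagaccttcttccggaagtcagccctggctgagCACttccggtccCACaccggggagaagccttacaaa
Zfp189: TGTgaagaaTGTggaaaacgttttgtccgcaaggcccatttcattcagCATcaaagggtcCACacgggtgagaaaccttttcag
Zfp553: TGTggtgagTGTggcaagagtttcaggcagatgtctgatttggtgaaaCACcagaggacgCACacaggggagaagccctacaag
Zfp768: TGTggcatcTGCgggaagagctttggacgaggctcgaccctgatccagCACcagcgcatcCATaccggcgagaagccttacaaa
Between pairs of these units 43 to 62 of 84 bases were identical. A unit of this exact form was found in 173 of 260 tested members with a coding sequence. Reads from such repeats can be hard to place, so the share of a gene's 50-base words found in transcripts of other genes is given for some members where it is high.

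The members as a whole were lower in HACY than in CCL4. They held 0.584% and 0.549% of all counts in the HACY libraries, against 0.879% and 0.727% in the CCL4 libraries. Means were 0.566% ± 0.0243 in HACY and 0.803% ± 0.108 in CCL4 (SD, n = 2), and the groups did not overlap. In these bulk libraries fewer cells of a type and less RNA per cell cannot be told apart. At an edgeR adjusted p below 0.05, 30 of 262 members (11.5%) were lower in HACY, where 3.54% of all 13428 genes tested were, and 1 member (0.382%) was higher, where 8.19% of all genes were. The median log2 fold change, HACY over CCL4, was -0.42 for members and -0.01 for all genes. It was below 0 for 214 members (81.7%, against 50.9% of all genes). Both HACY libraries lay below both CCL4 libraries for 167 members (63.7%, against 30.1% of all genes) and above both for 22 (8.40%, against 30.7%). Of the 231 members that were not called, 62 had an unadjusted p below 0.05 in the lower direction and 3 in the higher. With called genes counted too, 92 of 262 members were lower and 4 higher at that unadjusted edgeR p, beside 1825 and 2223 of all 13428 genes.

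**Figure D1:**
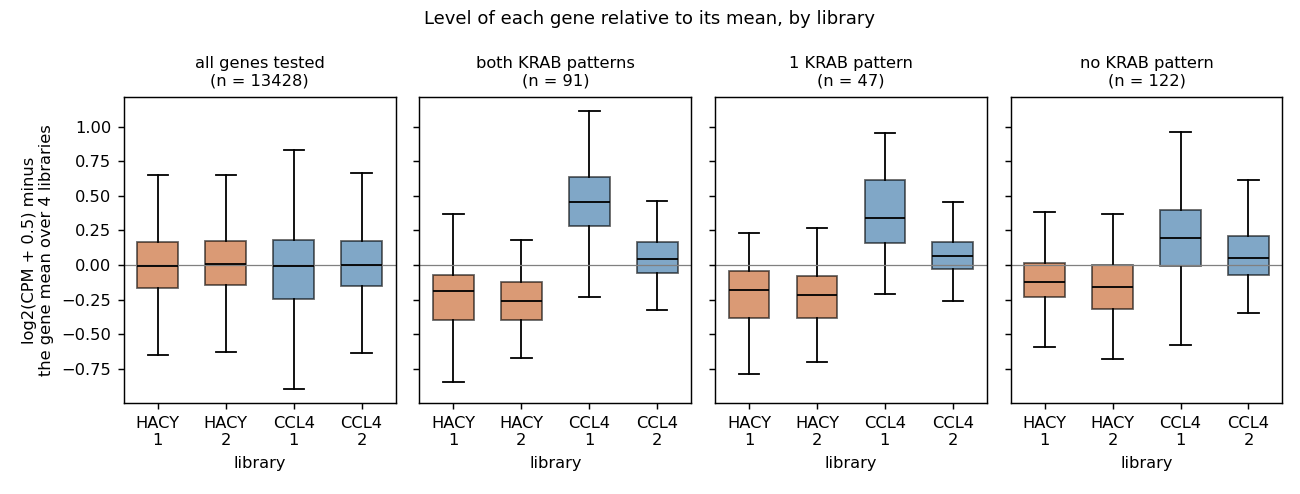
Level of each gene in each library relative to its mean over the 4 libraries (log2 of TMM-scaled CPM + 0.5), for all genes tested and for 3 classes of members; boxes span the quartiles with the median as a line, whiskers reach the last gene within 1.5 box lengths, and points beyond are not drawn. Medians of members with both KRAB patterns were -0.19 and -0.26 in the HACY libraries and 0.45 and 0.04 in the CCL4 libraries, while those of all genes lay near 0 in each library.

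The size of the shift rested in part on CCL4 replicate 1. This library held the highest level of 180 members (68.7%, against 30.7% of all genes), and CCL4 replicate 2 of 44, HACY replicate 1 of 20 and HACY replicate 2 of 18. The median member was 0.25 log2 units higher in CCL4 replicate 1 than in CCL4 replicate 2, while the HACY libraries were 0.06 apart. When CCL4 replicate 1 was left out, the median member was at -0.24 and 16 members were called lower (6.11%, against 4.68% of all genes). Leaving out CCL4 replicate 2 gave -0.53 and 91 lower members (34.7%, against 9.32% of all genes). With HACY replicate 1 left out 7 members were called lower (2.67%, against 0.618% of all genes) at a median of -0.45, and with HACY replicate 2 left out 3 were (1.15%, against 0.685%) at -0.38. No called member changed sign, and Zfp346 and Zfp444 kept their calls whichever library was left out.

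The called falls included 4 members known for work on RNA or ribosomes, grouped here after their values were seen, while Zfp106, an RNA-binding member given below, was at 0.01. Zfp346, which binds double-stranded RNA, had 19.7 and 17.9 CPM in HACY against 60.02 and 51.1 CPM in CCL4. The log2 fold change of -1.56 (SE 0.17, edgeR adjusted p = 0.00276) had the smallest p among members and stayed between -1.67 and -1.44 whichever library was left out. Zfp622, the counterpart of a yeast factor that finishes the large ribosomal subunit in the cytoplasm, had 94.1 and 83.8 CPM in HACY against 159.5 and 164.9 in CCL4 (log2 -0.87, SE 0.12, adjusted p = 0.00731). Zfp593, related to a yeast protein that helps export the same subunit, had 24.96 and 20.7 CPM in HACY against 46.6 and 38.3 in CCL4 (log2 -0.90, SE 0.19, adjusted p = 0.0254). Each of the 3 genes had both HACY libraries below both CCL4 libraries. Of the 50-base words of Zfp593, 64.5% also occur in the transcripts of E130218I03Rik, so its counts are uncertain. Zfp830, a nuclear protein tied to splicing and needed for survival of the early mouse embryo, had 22.4 and 20.9 CPM in HACY against 37.9 and 33.4 in CCL4 (log2 -0.72, SE 0.17, adjusted p = 0.0364). Without HACY replicate 2 the call of Zfp622 was lost (adjusted p = 0.0628), Zfp593 lost its call without either HACY library (0.0612 and 0.164), and Zfp830 lost it without either HACY library or CCL4 replicate 1 (0.0557 to 0.240).

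Falls among DNA-binding members without a KRAB pattern included factors with known partners. Zfp462, a very large chromatin protein whose human counterpart is mutated in a developmental syndrome, had 22.0 and 29.2 CPM in HACY against 53.1 and 57.5 in CCL4 (log2 -1.11, SE 0.18, adjusted p = 0.0118). Zfp444, known in human as an endothelial zinc finger activator, had 13.8 and 15.04 CPM in HACY against 29.1 and 42.6 in CCL4 (log2 -1.32, SE 0.23, adjusted p = 0.0138). Zfp296, a partner of Klf4 in pluripotent cells, had 8.74 and 6.30 CPM in HACY against 20.2 and 17.0 in CCL4 (log2 -1.30, SE 0.25, adjusted p = 0.0198). In all 3 the lower CCL4 library stood clear of the higher HACY library. Zfp768, whose human counterpart binds old interspersed repeats, had 25.4 and 19.8 CPM in HACY against 50.8 and 40.6 in CCL4 (log2 -1.01, SE 0.20, adjusted p = 0.0217). Zfp553 had 34.7 and 28.9 CPM in HACY against 69.5 and 62.3 in CCL4 (log2 -1.05, SE 0.16, adjusted p = 0.00906). Zfp691 had 6.34 and 5.73 CPM in HACY against 11.7 and 16.2 in CCL4 (log2 -1.21, SE 0.26, adjusted p = 0.0294). These also had every HACY library below every CCL4 library. The calls of Zfp553, Zfp296 and Zfp768 were lost without HACY replicate 2 (0.0558 to 0.123), that of Zfp462 without HACY replicate 1 (0.0693), and that of Zfp691 without either HACY library (0.111 and 0.145).

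**Figure D2:**
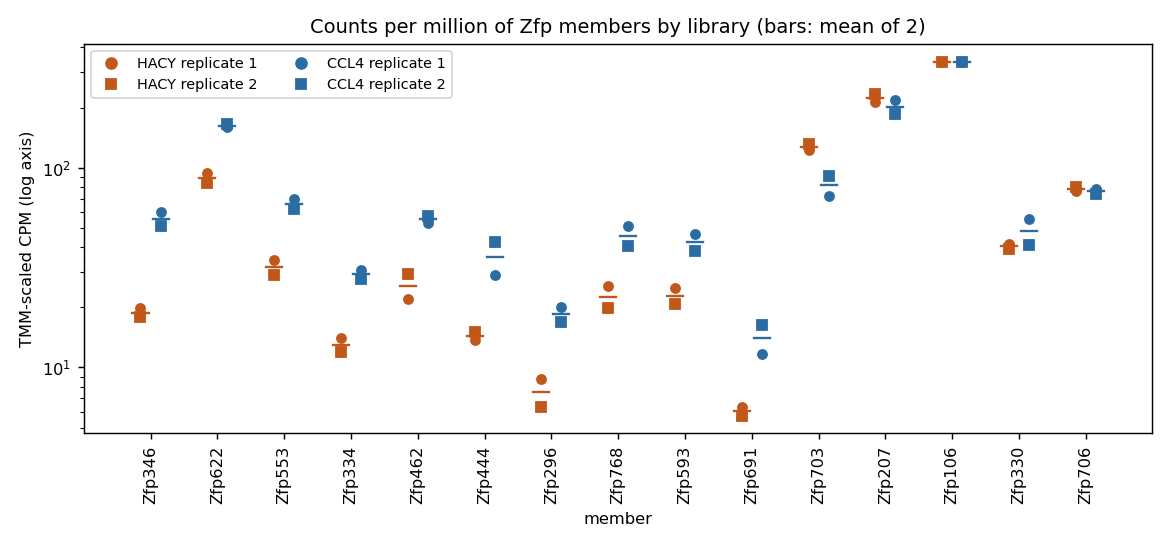
TMM-scaled CPM (log axis) in each library of the 10 lower members with the smallest p, of Zfp703, the one higher member, and of the 4 other members with the highest mean FPKM; points are libraries and bars are means of 2. The HACY points lie below the CCL4 points for the first 10 genes, above them for Zfp703, and overlap or nearly meet them for Zfp207, Zfp106, Zfp330 and Zfp706.

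A further set of lower calls lay nearer the threshold. Zfp143, which binds promoters and loop anchors, had 43.7 and 49.0 CPM in HACY against 90.2 and 66.2 in CCL4 (log2 -0.75, SE 0.18, adjusted p = 0.0387). Zfp746 (PARIS), a parkin substrate with 1 KRAB pattern that represses the gene of PGC-1alpha, had 36.7 and 36.3 CPM in HACY against 78.5 and 53.5 in CCL4 (log2 -0.85, SE 0.20, adjusted p = 0.0365). Zfp217, a co-repressor partner that is amplified in human breast cancer, had 62.2 and 65.7 CPM in HACY against 96.3 and 87.1 in CCL4 (log2 -0.52, SE 0.13, adjusted p = 0.0434). For these the HACY libraries sat close together and below a wider CCL4 pair. Zfp219, a partner of Sox9 in cartilage, had 66.6 and 64.1 CPM in HACY against 94.2 and 95.1 in CCL4 (log2 -0.53, SE 0.12, adjusted p = 0.0343). Zfp750, known from the differentiation of epidermis, had 9.99 and 10.5 CPM in HACY against 29.9 and 16.4 in CCL4 (log2 -1.17, SE 0.30, adjusted p = 0.0468). Zfp341, whose human counterpart drives STAT3 transcription, had 8.96 and 7.83 CPM in HACY against 20.2 and 13.9 in CCL4 (log2 -1.02, SE 0.26, adjusted p = 0.0453). Their CCL4 libraries differed from each other least for Zfp219 and most for Zfp750. The other lower members without a KRAB pattern were Zfp574 (log2 -0.70), Zfp704 (-0.63), Zfp449 (-1.16) and Zfp956 (-1.14). Each of these 10 lost its call without HACY replicate 1 and without HACY replicate 2 (0.105 to 0.309), and Zfp143, Zfp746, Zfp217, Zfp750, Zfp341, Zfp704, Zfp449 and Zfp956 also without CCL4 replicate 1 (0.0522 to 0.0967). In that last case Zfp746 was at -0.55 and Zfp750 at -0.68. With offsets for GC content and transcript length Zfp219 was at -0.23 and not called (0.301).

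Of the 25 members on a list of non-KRAB factors with known roles, 8 were lower and 1 was higher, where 11.5% and 0.382% of all members and 3.54% and 8.19% of all genes were, with a median log2 fold change of -0.38. The 8 are Zfp622, Zfp462, Zfp219, Zfp574, Zfp830, Zfp143, Zfp217 and Zfp750. Next in order of p was Zfp451, a SUMO ligase, at 37.8 and 34.9 CPM in HACY and 59.6 and 49.6 in CCL4 (log2 -0.59, SE 0.16, adjusted p = 0.0553), whose groups did not overlap. After it came Zfp521, a co-factor in blood, bone and nerve precursors, in the opposite direction, at 10.4 and 9.82 CPM in HACY and 2.38 and 5.72 in CCL4 (log2 1.32, SE 0.41, adjusted p = 0.0814). Its groups did not overlap either, and its CCL4 libraries were far apart. Zfp148 and Zfp281, which bind GC-rich promoters, were at -0.41 and -0.48 (adjusted p = 0.113 and 0.134), again with both HACY libraries under both CCL4 libraries. Zfp335, a subunit of methyltransferase complexes, had 83.4 and 78.1 CPM in HACY and 115.7 and 95.9 in CCL4 (log2 -0.39, adjusted p = 0.116). Close to 0, with overlapping groups, were Zfp384 (0.13), Zfp652 (0.10), Zfp318 (-0.01), Zfp638 (-0.12) and Zfp503 (-0.02), the NET family relative of Zfp703. The list was chosen with earlier results of these data known, so its count is a description.

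Members with both KRAB patterns gave 7 lower calls. Zfp111 had 29.0 and 26.4 CPM in HACY against 55.7 and 42.5 in CCL4 (log2 -0.83, SE 0.18, adjusted p = 0.0310). Zfp688 had 5.90 and 7.21 CPM in HACY against 14.2 and 13.3 in CCL4 (log2 -1.07, SE 0.24, adjusted p = 0.0315). Zfp456 had 5.73 and 3.92 CPM in HACY against 22.0 and 10.3 in CCL4, the steepest called fall (log2 -1.74, SE 0.40, adjusted p = 0.0358). The HACY levels of all 3 stayed below the lower of the CCL4 libraries. Zfp708, which silences a family of rodent retroelements, had 2.35 and 3.23 CPM in HACY against 9.25 and 6.11 in CCL4 (log2 -1.46, SE 0.35, adjusted p = 0.0399). Its 50-base words all occur in transcripts of the gene model Gm28557 as well, and 65.3% of those of Zfp456 in Gm17039, so these counts are uncertain. The others were Zfp617 (log2 -0.88), Zfp266 (-0.63) and Zfp958 (-1.20). With 1 KRAB pattern, beside Zfp746 above, Zfp334 had 14.1 and 11.9 CPM in HACY against 30.6 and 27.8 in CCL4 (log2 -1.17, SE 0.19, adjusted p = 0.0111). Zfp189, studied in stress resilience of the mouse brain, had 7.65 and 6.41 CPM in HACY against 19.8 and 13.4 in CCL4 (log2 -1.24, SE 0.27, adjusted p = 0.0298). Zfp184, at 1.80 and 1.93 CPM in HACY against 4.30 and 5.27 in CCL4, was the least abundant of these (log2 -1.36, SE 0.35, adjusted p = 0.0477). Zfp334 lost its call without HACY replicate 2 alone (0.0753). The other calls here were lost without either HACY library (0.0600 to 0.279), Zfp184 also without CCL4 replicate 2 (0.0551), and all but Zfp184, Zfp334 and Zfp688 without CCL4 replicate 1 (0.0519 to 0.0814). In that last case Zfp456 was at -1.09 and Zfp958 at -0.68. Among the called members named by the rule given below, limma-voom did not call Zfp456, Zfp708 and Zfp617, nor Zfp746 above (adjusted p = 0.0550 to 0.0710). It called 19 members lower in all, against 30 by edgeR, so calls of members outside that rule were lost as well.

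Other KRAB members with known targets were not called. Zfp809, which silences retroviruses by their primer binding site, had 51.3 and 59.9 CPM in HACY and 61.2 and 43.5 in CCL4, and the libraries of the groups interleaved (log2 0.09, SE 0.19, adjusted p = 0.801). Zfp568, which represses a placental promoter of Igf2, had 67.3 and 72.8 CPM in HACY and 78.7 and 68.7 in CCL4 (log2 -0.07, SE 0.14, adjusted p = 0.761). Zfp445, which guards imprints, had 106.8 and 92.0 CPM in HACY and 167.3 and 115.2 in CCL4 (log2 -0.51, SE 0.19, adjusted p = 0.127). The Zfp445 groups did not overlap, but its CCL4 libraries were further apart than its nearest HACY and CCL4 libraries. It was called with offsets for GC content and transcript length (log2 -0.62, adjusted p = 0.0360) and without CCL4 replicate 2 (-0.75, 0.0106), and was at -0.21 without CCL4 replicate 1 (0.324).

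Zfp932, which represses endogenous retroviruses, had 10.4 and 13.1 CPM in HACY and 11.4 and 11.3 in CCL4 (log2 0.04, adjusted p = 0.921), and 55.5% of its 50-base words also occur in Gm15446. On the list of zinc finger genes known from retroelement, imprint and liver work, to which Rsl1 and 2 shorter Zfp names also belong, 1 of 7 tested genes was called, Zfp708, and the median was -0.07. Zfp57, the best known guardian of imprints, had 17.3 and 13.3 CPM in HACY and 16.7 and 13.9 in CCL4 (log2 -0.0038), and Zfp42 was at 0 counts in every library. Levels of these genes thus overlapped between the groups for Zfp57, Zfp568, Zfp809 and Zfp932, and not for Zfp708, Zfp445 and Rsl1.

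A single member was higher in HACY. Zfp703, a co-repressor of the NET family that is amplified in human luminal breast cancer, had 122.6 and 130.7 CPM in HACY against 72.5 and 90.5 in CCL4 (log2 0.64, SE 0.15, edgeR adjusted p = 0.0353). Its HACY libraries lay well above its CCL4 libraries. The call was lost with upper-quartile scaling (0.0527), by library size alone (0.0622), on the deposited FPKM (0.107 and 0.143) and without either HACY library (0.135 and 0.190), with a positive value each time. The reading frame of Zfp703 holds no finger of the pattern used here, as was the case for 9 members in all. Above 0 but not called, with the next smallest p, were Zfp521, described with its list above, Zfp185 and Zfp811, all 3 named after their values were seen. Zfp185 was at 3.50 and 4.26 CPM in HACY and 2.17 and 1.68 in CCL4 (log2 1.007, adjusted p = 0.121). Zfp811 was at 0.710 and 1.02 CPM in HACY and 0.354 and 0.148 in CCL4 (log2 1.76). It became a member through its HACY counts alone, so the direction of its difference was favoured by the count rule and its values are a description.

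Of the 5 most abundant members per transcript length, 4 were not called. Mean FPKM of the members, the deposited measure scaled to transcript length, ran from 0.0247 to 51.4, with a median of 2.31, and 57 were below 1 while 22 reached 10. Zfp207 (BuGZ), a spindle and kinetochore protein, had 49.6 and 53.2 FPKM in HACY and 52.7 and 49.9 in CCL4, with overlapping groups (log2 of counts 0.14, SE 0.13, adjusted p = 0.517). Zfp106, an RNA-binding protein needed by motor neurons, had 26.3 and 25.7 FPKM in HACY and 27.2 and 28.2 in CCL4 (log2 of counts 0.01, SE 0.11, adjusted p = 0.971). Zfp330 had 22.2 and 20.3 FPKM in HACY and 31.5 and 23.6 in CCL4 (log2 of counts -0.26, SE 0.18, adjusted p = 0.385). Zfp706, at 21.9 and 21.6 FPKM in HACY and 22.9 and 23.2 in CCL4, was also not called (log2 of counts 0.04, SE 0.12, adjusted p = 0.870). Zfp622, second in this order with 34.2 and 29.7 FPKM in HACY and 62.3 and 64.5 in CCL4, was the called one. Over all members, 17 of the 88 most abundant by CPM, 10 of the 87 in the middle and 3 of the 87 least abundant were called lower. These are 19.3%, 11.5% and 3.45%, against 3.54% of all genes of whatever abundance, so the least abundant members were near that share. The medians of the 3 groups were -0.31, -0.46 and -0.47. The share called was thus highest where the median was nearest to 0.

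**Figure D3:**
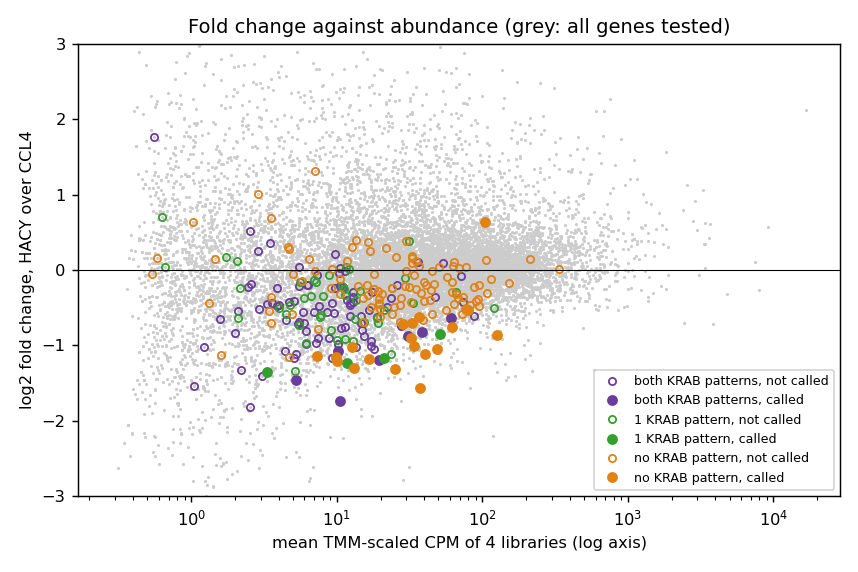
Log2 fold change, HACY over CCL4, against mean TMM-scaled CPM of the 4 libraries (log axis); grey points are all genes tested, circles are members by class and filled circles are called. Genes beyond 3 log2 units in either direction are not drawn. Called members lie at -0.52 or below, apart from Zfp703 at 0.64.

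The description of the set as KRAB-type was checked on translated coding sequences, and it held for a part of the members. A KRAB box was called where both of its short patterns were found, which was so for 92 members, while 47 had 1 of them, 122 had neither and 2 had no coding sequence to read. The median number of fingers was 11 with both patterns, 12 with 1 pattern and 7 with neither. Median levels were 1.513, 1.501 and 5.090 FPKM in the same order, and the GC content of the transcripts was 42.5%, 41.2% and 51.3%. Members with both patterns had a median log2 fold change of -0.55, with 7 of 91 called lower (7.69%, against 3.54% of all genes). Of these 91, 82 were below 0 (90.1%, against 50.9% of all genes). In 66 both HACY libraries were under both CCL4 libraries (72.5%, against 30.1%). Members with 1 pattern had a median of -0.47, with 4 of 47 called lower (8.51%). Members with neither had -0.28, with 19 of 122 lower (15.6%) and 1 higher (0.820%, against 8.19% of all genes). The share of members called therefore ran opposite to the median, beside a difference in level between the classes, and no test of the difference between classes was made. Without CCL4 replicate 1 the class medians were -0.33, -0.29 and -0.20.

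**Figure D4:**
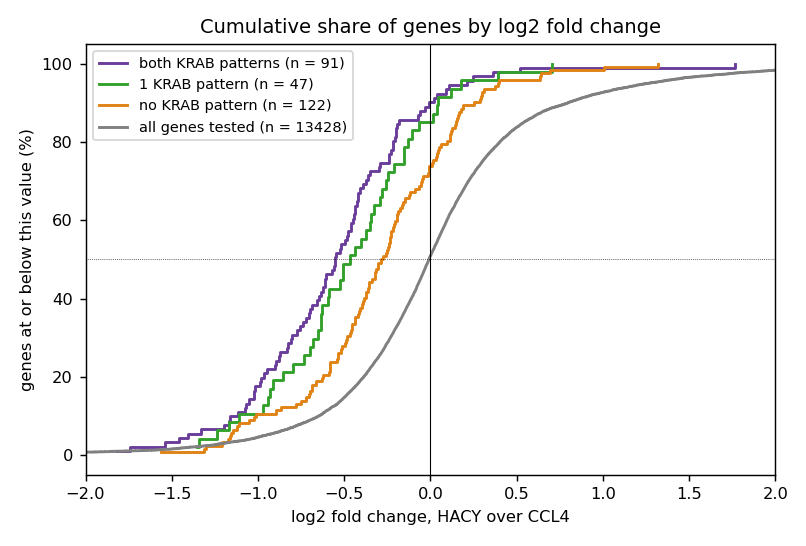
Cumulative share of genes (%) by log2 fold change, HACY over CCL4, for 3 classes of members and for all genes tested; the axis ends at 2 log2 units on either side. The curves of members lie to the left of the curve of all genes, with medians of -0.55, -0.47 and -0.28 against -0.01.

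Fold changes followed other features of the genes loosely. The counts of calls below stand beside 3.54% of all genes called lower and 8.19% called higher. Members below 42% GC had a median of -0.56 (6 of 84 called lower), those of 42 to 50% had -0.44 (9 of 88) and those of at least 50% had -0.25 (15 of 89 lower, 1 higher), and Spearman's rank correlation between GC content and log2 fold change was 0.21 over 261 members that share 4 libraries. The gap between the CCL4 replicates moved with the same feature, with medians of 0.51 below 42% GC and 0.07 at 50% or more. When CCL4 replicate 1 was left out the medians of these groups were -0.28 and -0.24. Without CCL4 replicate 2 they were -0.76 and -0.32, and with offsets for GC content and transcript length -0.61 and -0.22. Members with at most 3 fingers had a median of -0.12, those with 4 to 9 had -0.41 and those with at least 10 had -0.47. The 99 members with no 50-base word in common with another gene gave 13 lower calls and a median of -0.38, and the 38 with over 20% in common gave 4 and -0.37. Zfp593, Zfp708 and Zfp456, whose shares are given above, are among these 4, and the share of the remaining one is not given. Of the lower calls, 14 overlap an annotated gene on the opposite strand, Zfp346 and Zfp143 among them. The library kit keeps strand, but the strand setting of the counting is not given in the sources used here. The 143 tested members with no overlapping gene gave 14 lower calls and a median of -0.44.

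Zinc finger genes lie in chromosome clusters, and 129 members fell into 21 clusters of 3 or more with starts at most 500000 bases apart. The cluster median was below 0 in 18, and 7 held a called gene. Members in clusters had a median of -0.48, with 11 of 129 called lower (8.53%, against 3.54% of all genes). The other 133 had -0.36, with 19 lower (14.3%) and 1 higher (0.752%, against 8.19% of all genes). The largest cluster, 14 members on chr13:67038596-67827002 (GRCm38), was also the one with the lowest median, at -0.95. All of its members were below 0, all carried at least 1 KRAB pattern, 12 had both HACY libraries under both CCL4 libraries, and Zfp708 and Zfp456 were called. Among all genes tested, 50.9% were below 0 and 30.1% had both HACY libraries under both CCL4 libraries. Its members ran from Zfp712 (log2 -1.82, at 1.58 and 0.624 CPM in HACY and 5.06 and 2.81 in CCL4, adjusted p = 0.0742) to Zfp455 (log2 -0.24, at 3.60 and 3.52 in HACY and 4.96 and 3.45 in CCL4). Rsl1, which is no member by its name, lies inside this cluster at chr13:67173182-67184044 on the plus strand. It had 17.8 and 13.4 CPM in HACY and 42.4 and 21.4 in CCL4 (log2 -1.03, SE 0.33, adjusted p = 0.0901), so its groups did not overlap and it was not called. The CCL4 replicates were 0.68 log2 units apart at the median of the cluster, and without CCL4 replicate 1 its median was -0.54.

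The pattern of the next largest cluster was alike. On chr17:21008903-22867134, 13 members were all below 0 with a median of -0.76. Of these, 0 were called by edgeR or limma-voom, 2 called lower by DESeq2 and 7 lower at an unadjusted edgeR p below 0.05. Zfp677 had 2.95 and 3.63 CPM in HACY and 8.75 and 5.52 in CCL4 (log2 -1.11, adjusted p = 0.0812), and Zfp942 had 10.4 and 13.1 in HACY and 34.0 and 14.7 in CCL4 (log2 -1.05, adjusted p = 0.119). In both genes CCL4 replicate 1 was the high library, and without it the cluster median was -0.34. On chr7:127233061-127885996, 10 members included the called Zfp553, Zfp768 and Zfp688, had a median of -0.42 and ran up to Zfp764 (log2 -0.03). In this cluster the CCL4 replicates were 0.14 apart. On chr6:47819266-48623227, 9 members had a median of -0.65, 8 of them were below 0, and Zfp956 and Zfp746 were called. Zfp775 there had 3.17 and 2.61 CPM in HACY and 7.03 and 5.87 in CCL4 (log2 -1.16, SE 0.31, adjusted p = 0.0555), with no overlap, and Zfp467 was the one above 0 (0.15). Medians above 0 were found in a chromosome 7 cluster around Zfp628 (0.04), a chromosome 9 cluster around Zfp809 (0.05) and a chromosome 10 cluster around Zfp873 (0.12), beside -0.01 for all genes. By library size alone they were -0.13, -0.12 and -0.05, above the -0.18 of all genes, and with offsets for GC content and length 0.35, 0.04 and -0.05, where all genes were at -0.06.

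**Figure D5:**
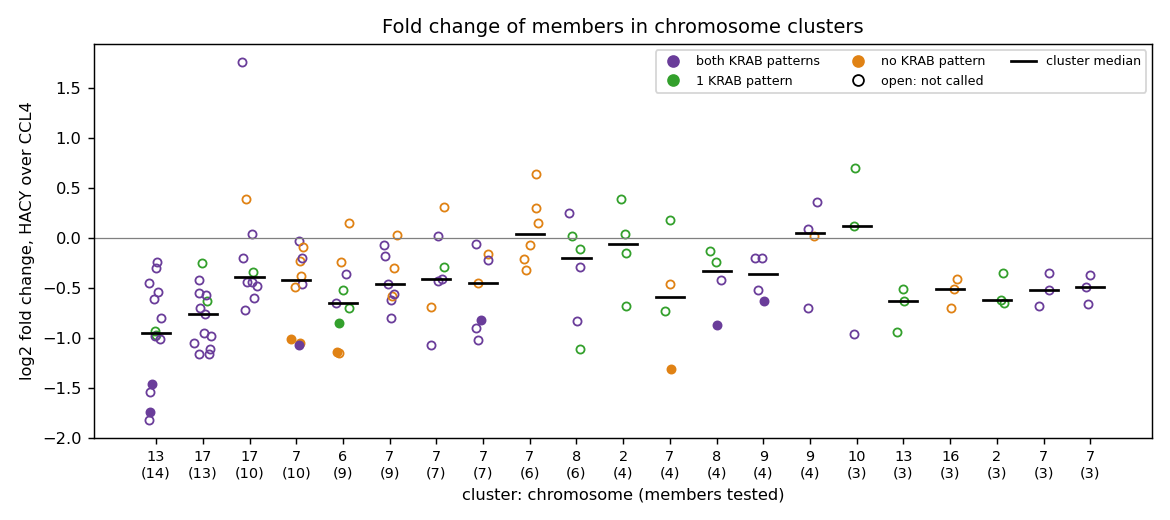
Log2 fold change, HACY over CCL4, of members in 21 chromosome clusters, ordered by size, with chromosome and number of members under each; colours give the KRAB class, filled circles are called genes and bars are cluster medians. The leftmost cluster, of 14 members on chromosome 13, has the lowest median (-0.95).

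Promoters of the 2 lower members with the smallest p and of the first called member with both KRAB patterns are shown because these genes fell together while their start regions differ in base composition. Each runs from 250 bases before to 50 after the RefSeq start (GRCm38.p6), 5′ to 3′ on the gene's strand, with matches to the searched letters in capitals. They lie at chr13:55105072-55105371 (plus strand), chr15:25984116-25984415 (plus) and chr7:24208100-24208399 (minus).
Zfp346: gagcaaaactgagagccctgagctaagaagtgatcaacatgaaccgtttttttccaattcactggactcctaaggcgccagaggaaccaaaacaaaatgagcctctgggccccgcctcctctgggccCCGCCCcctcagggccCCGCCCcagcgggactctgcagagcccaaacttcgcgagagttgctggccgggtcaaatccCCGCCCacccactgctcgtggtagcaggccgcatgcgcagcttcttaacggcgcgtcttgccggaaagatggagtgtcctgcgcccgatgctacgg
Zfp622: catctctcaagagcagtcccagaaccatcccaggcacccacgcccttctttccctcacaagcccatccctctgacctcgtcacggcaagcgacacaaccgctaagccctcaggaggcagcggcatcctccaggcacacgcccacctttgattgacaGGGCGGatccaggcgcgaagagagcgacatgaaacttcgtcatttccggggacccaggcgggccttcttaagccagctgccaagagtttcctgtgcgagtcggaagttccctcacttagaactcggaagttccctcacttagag
Zfp111: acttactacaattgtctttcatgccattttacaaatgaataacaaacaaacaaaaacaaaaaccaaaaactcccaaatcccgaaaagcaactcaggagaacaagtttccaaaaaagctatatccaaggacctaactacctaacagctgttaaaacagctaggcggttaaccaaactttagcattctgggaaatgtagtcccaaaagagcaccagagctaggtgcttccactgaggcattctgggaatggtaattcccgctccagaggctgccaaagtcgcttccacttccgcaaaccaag
The GC box letters GGGCGG, searched on both strands, are the matches shown. Zfp346 held 3 GC boxes and 20 CpG pairs, Zfp622 held 1 and 17, and Zfp111 held 0 and 5. Of 262 tested members, 218 had a promoter in the table. A GC box was in 48.6% of these, in 66.7% of the 24 called lower, and in 35.9% of all 27025 promoters. The ETS letters CCGGAAG, searched in the same way, had no match in the promoters shown, and were in 20.6% of members and 9.12% of all promoters. The TATA letters, TATAAA, were in 5.96% of members and 14.2% of all, and no motif's letters contain those of another. Members had a median of 16 CpG pairs in the window and all promoters 7. The promoters taken as a whole were not limited to genes tested here, while members were chosen by their counts. A comparison with the promoters of tested genes was not made. With both KRAB patterns the GC box was in 43.4% and the median was 11 CpG pairs, and with neither pattern these were 62.4% and 20.

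The genes of the KRAB co-repressor machinery had a median near that of all genes, at 0.07. Of 27 tested genes of this list, 0 were called in either direction by edgeR or limma-voom and 1 in each direction by DESeq2, while 2 were higher and 2 lower at an unadjusted edgeR p below 0.05. By library size alone the median was -0.11, where the median of all genes was -0.18. Trim28 had 326.0 and 307.6 CPM in HACY and 361.5 and 363.2 in CCL4 (log2 -0.19, SE 0.11, adjusted p = 0.294). Setdb1 had 104.0 and 100.3 CPM in HACY and 99.8 and 92.2 in CCL4 (log2 0.09, SE 0.12, adjusted p = 0.670). Their groups did not overlap, by small margins in opposite directions. The maintenance methyltransferase Dnmt1 (log2 0.45, adjusted p = 0.0741) and its recruiter Uhrf1 (0.81, 0.0882) had the smallest p on the positive side, and Fam208a, of the HUSH silencing complex (-0.75, 0.132), on the negative side.

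Other zinc finger families had medians below 0 as well. Of all genes tested, 3.54% were called lower, 8.19% were called higher, and 30.1% had both HACY libraries under both CCL4 libraries. Zfp genes with 1 or 2 digits had a median log2 fold change of -0.54, with 7 of 48 called lower (14.6%) and 1 higher (2.08%). The SCAN-domain families Zkscan and Zscan had -0.55, with 2 of 17 called lower (11.8%) and both HACY libraries under both CCL4 libraries for 16 (94.1%). The BTB-domain Zbtb genes had -0.27, with 5 of 40 lower (12.5%), and the Klf genes -0.43, with 3 of 13 lower (23.1%). The CCCH-type Zc3h genes, which bind RNA, had -0.16 with 0 of 19 called by edgeR or limma-voom and 2 called lower by DESeq2 (2 higher and 5 lower at an unadjusted edgeR p below 0.05). The 4 scalings tried gave each of these families a median below 0, and no test compared them with the 3-digit genes.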

How the data were processed

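Per the labels' protocols, paired-end stranded mRNA libraries were made from total RNA of the sorted cells. Each library has a deposited table with 2 values per gene symbol, a raw read count and an FPKM (scaled to transcript length and library size), both deposited by the authors and named so by the file headers. Trimmomatic, HISAT2, Cufflinks, HTSeq and DESeq and the build mm10 are named, per the submitters' processing notes, without versions or roles. The sample titles gave the groups and replicates.

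Counts of all genes were tested with edgeR 4.0.16 (R 4.3.3): filterByExpr (minimum count 10), TMM scaling, a robust quasi-likelihood fit with treatment as the only term, a two-sided test and Benjamini-Hochberg adjustment over 13428 genes, called below 0.05. CPM of genes are TMM-scaled, and summed marker levels are scaled to the raw library total. Standard errors are the log2 fold change over the square root of F, an approximation. Members and lists were chosen with earlier results of these data known. The genes named by rule are the 10 called in each direction with the smallest p, the 5 most abundant by FPKM, up to 4 members per list, up to 3 per cluster and the edge of the count rule. All 31 called members are named, those beyond the rule after their values were seen, as were the cuts on GC content, fingers, shared words and abundance, the other families and the motifs.

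Locations and translated coding sequences came from GENCODE vM21 (GRCm38, the assembly of mm10), which matched 262 of 263 members. A finger was C-x2-4-C-x12-H-x3-5-H, and the KRAB patterns were F-x-D-V-x3-F and L-Y-x2-V-M within 40 residues. Proteins of RefSeq were not used. Alternatives, among them DESeq2 1.42.0 and limma 3.58.1, are in the closing section, and the fit was tested on simulated counts with the same dispersion for every gene. It called 16% of 50 genes changed 1.5-fold, 68% of 50 changed 2-fold and 96% of those changed 4-fold or 8-fold. Of its 145 calls there, 7 were false. Most changes of 1.5-fold were thus missed in the simulation. The depth of 18467299 to 19314219 counts limits low genes, and a count of 0 allows up to 3 counts.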

Additional observations from a re-analysis of the deposited data

How the results depend on the processing

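The median log2 fold change of members stayed below 0 under every alternative tried, and so did the difference in their share of counts. The number of members called lower, 30 as reported, was 62 with scaling by library size alone, 48 with DESeq2, 19 with limma-voom and 64 with offsets for GC content and transcript length. The share of all genes called lower, 3.54% as reported, moved with it, to 10.1%, 5.44%, 2.62% and 7.40% under these settings. The number of members ranged from 3 to 91 when single libraries were left out. There the remaining library of a group was assumed to vary like the other group. It was 26 to 42 under RLE or upper-quartile scaling, other count filters and the deposited FPKM. The number called higher, 1 as reported, was 0 with upper-quartile scaling, library size alone and both FPKM scales (log2 of FPKM + 1 and of FPKM + 0.1), 2 with DESeq2, 3 with the offsets and 0 to 2 without single libraries. The median of members was -0.59 by library size alone, where that of all genes was -0.18, and ranged from -0.53 to -0.24 without single libraries. The difference in share, -0.236 percentage points, ranged from -0.312 to -0.160. The difference between the medians of members with and without both KRAB patterns, -0.23, was -0.075 on log2 of FPKM + 1, a scale that shrinks fold changes of low genes, and ranged from -0.30 to -0.13 without single libraries. Replicate numbers are shared by the groups, but same-numbered libraries did not deviate together (r = -0.10 over genes). This is a single value, since with 2 libraries in each group both pairs must give the same r. With the replicate number as a block 16 members were called lower, and 2.46% of all genes. On log2 of FPKM + 0.1, among members named by rule, the lower calls of Zfp768, Zfp593, Zfp691, Zfp219, Zfp456, Zfp111, Zfp266 and Zfp746 were lost (limma adjusted p = 0.0501 to 0.0822). Across the 80 tested members named by rule, 1045 of 1174 values kept their direction and call, 61 lost the call, 68 gained it and 0 changed sign while called. Called members named beyond the rule, Zfp189, Zfp143 and Zfp750 among them, are not in this tally or in the list before it. Where no cause is named, the cause was not tested. In the members with the fewest counts a p above the threshold does not show that levels did not differ.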
